A study of Saccharomyces cerevisiae with 12 samples.

Results

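The genes of the ribosome-associated chaperones and of the nascent polypeptide-associated complex (NAC) of *S. cerevisiae* were followed in wild-type cells under mild heat shock. The group was defined by gene names and not by a measured value. It holds the Ssb Hsp70s (*SSB1* and *SSB2*), the ribosome-associated complex (RAC, *SSZ1* and *ZUO1*) and NAC (*EGD1*, *EGD2* and *BTT1*). Probes were found for 6 of the 7 genes, among 6019 measured genes and open reading frames, of which 5376 have a name. No probe carries the name *SSB1*, so *SSB1* was not analysed here. *SSB1* and *SSB2* are nearly identical paralogs, so the *SSB2* probe may also bind *SSB1* transcript, and this was not tested.

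A nascent chain meets these proteins as it leaves the exit tunnel of the ribosome. Ssb1p and Ssb2p are Hsp70s that bind ribosomes and the emerging chain, and RAC, a stable pair of the atypical Hsp70 Ssz1p and the J-protein Zuo1p, stimulates the ATPase of Ssb. NAC is a dimer of the alpha subunit Egd2p with the beta subunit Egd1p, or with the minor beta subunit Btt1p, and it sits at the same exit site. In yeast these genes are known as chaperones linked to protein synthesis, in contrast to Hsp70s such as Ssa4p, which are made in response to denatured proteins.

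Log-phase JN54 (wild-type) cells in YPD were moved to 43°C for 60 or 30 min, and control cells were kept at 30°C for the same time, so that each time has its own control. JN54 is of mating type a and carries *his3*, *leu2*, *ura3*, *trp1* and *lys2* mutations, which are shared by heat-shocked and control cells. Poly(A) RNA of heat-shocked cells (Cy5) and of control cells (Cy3) was hybridized together to cDNA microarrays, in 3 experiments at each time. The mutant of the same study, other strains and other temperatures were not analysed here.

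The values are log2 ratios of heat-shocked over control cells, so that -1 stands for a signal at 50% of the control. The base of the logarithm is not stated and was read as 2, and all percentages below depend on it. Each array held 5991 to 6019 values, with a median between -0.01 and 0.03 and a median absolute deviation between 0.38 and 0.70. The stress genes *HSP12*, *HSP26* and *SSA4* lay above 0 in all 6 arrays, which fits the direction of the labels. Cy5 marked the heat-shocked cells throughout as far as the sources describe, and any bias between the dyes would therefore recur in all arrays. The experiments are called independent, and nothing states that they came from separate cultures, so the p-values measure only the spread between these arrays. A ratio holds no expression level, so transcripts cannot be ranked by abundance, and fewer cells with a transcript cannot be told apart from less transcript per cell.

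Of the measured genes of the group, the 5 main ones fell at both times, and the minor NAC subunit *BTT1* did not. The fall of *ZUO1* at 60 min was the least firm of these and was lost under 6 of 19 alternative settings. *SSB2*, *SSZ1*, *ZUO1*, *EGD1* and *EGD2* passed the limma test in the lower direction, with a Benjamini-Hochberg adjusted p under 0.05 over all features, at 60 min and at 30 min. These are 5 of 6 genes at each time, where 18.2% of all features fell at 60 min and 15.9% at 30 min. By limma 0 of the 6 genes rose at either time, where 15.6% of all features rose at 60 min and 10.7% at 30 min. At an unadjusted p under 0.05 the count of members that rose was also 0 at both times. In either direction 2700 of the 6019 features had such a p at 60 min and 2436 at 30 min. With array weights in limma, *BTT1* rose at 30 min (log2 ratio 0.46, adjusted p = 0.0267). In that setting 1612 of the 6019 features rose at 30 min, against 647 without weights. The median log2 ratio of the 6 genes was -1.46 at 60 min and -1.61 at 30 min, against 0.01 and -0.01 for all features.

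The study's rule of a change over 2-fold in at least 2 of the 3 experiments gave nearly the same picture. It was met by 4 of the 6 genes in the lower direction at 60 min and by 5 at 30 min, where 10.5% of all features met it at 60 min and 10.2% at 30 min. *ZUO1* was the gene that met it at 30 min and not at 60 min. In the higher direction it was met by 0 of the 6 genes, where 6.89% of all features met it at 60 min and 4.42% at 30 min. Of the 30 single ratios of the 5 genes that fell, 30 were below 0 and 26 were below -1. These 5 genes were picked by their means over the same arrays, so this count only describes them and is not a further test.

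**Figure D1:**
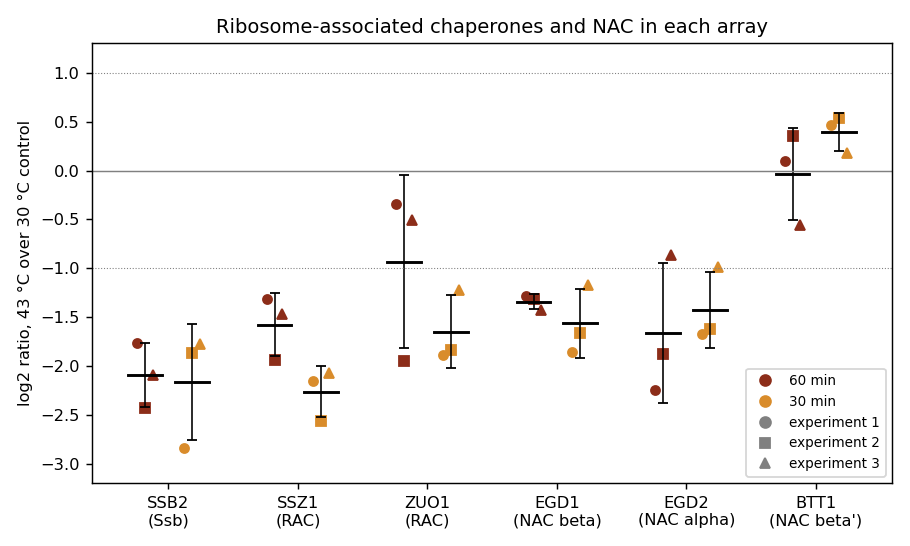
Log2 ratio (43°C over the 30°C control, vertical axis) of each measured gene in every array, with experiments 1 to 3 as circles, squares and triangles, 60 min in dark red and 30 min in orange, and horizontal bars for the mean ± SD of 3 arrays. *BTT1* lies near 0 and the other 5 genes lie below 0 in every array, with the widest spread for *ZUO1* at 60 min.

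*SSB2* (YNL209W), the Hsp70 that binds the emerging chain, had log2 ratios of -1.77, -2.43 and -2.09 in experiments 1, 2 and 3 at 60 min. At 30 min the ratios were -2.84, -1.87 and -1.78. The 3 arrays of 60 min lie within the range of the 30 min arrays apart from the highest value, and every array is below -1. The mean was -2.09 ± 0.33 at 60 min (SD, n = 3), or 23.4% of the control with a 95% interval of 15.9% to 34.5% (adjusted p = 0.000210 by limma). At 30 min it was -2.16 ± 0.59 (SD, n = 3), or 22.4% of the control with an interval of 15.2% to 32.9% (adjusted p = 0.000265 by limma). This put *SSB2* at rank 136 from the lowest of the 6019 features at 60 min and at rank 91 at 30 min, and it was the lowest of the 6 genes in 3 of the 6 arrays.

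*SSZ1* (YHR064C), the Hsp70-type subunit of RAC, had log2 ratios of -1.32, -1.94 and -1.47 at 60 min. At 30 min they were -2.15, -2.56 and -2.08, so that all 3 arrays of 30 min lie below all 3 of 60 min. The mean of -1.58 ± 0.32 at 60 min corresponds to 33.5% of the control (adjusted p = 0.000416 by limma), and the mean of -2.26 ± 0.26 at 30 min to 20.8% (adjusted p = 0.000100; SD, n = 3 each). *SSZ1* held rank 282 from the lowest at 60 min and rank 78 at 30 min, the lowest rank of the group at that time.

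*ZUO1* (YGR285C), the J-protein of RAC, had log2 ratios of -0.34, -1.95 and -0.50 at 60 min. At 30 min they were -1.89, -1.84 and -1.22. At 60 min experiment 2 stands far below the other experiments, while the 3 arrays of 30 min lie close together. The mean was -0.93 ± 0.88 at 60 min, or 52.4% of the control with a 95% interval of 32.9% to 83.5% (adjusted p = 0.0371 by limma), and -1.65 ± 0.37 at 30 min, or 31.9% (adjusted p = 0.00331; SD, n = 3 each). Without experiment 2 of 60 min the mean at 60 min was -0.42 and the gene did not pass the test (adjusted p = 0.235), and this call was lost under 6 of 19 alternative settings in all. *ZUO1* fell at 30 min under each of these 19 settings.

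*EGD1* (YPL037C), the main beta subunit of NAC, had log2 ratios of -1.29, -1.31 and -1.42 at 60 min, the tightest set of the group. At 30 min the ratios were -1.86, -1.66 and -1.17. The mean was -1.34 ± 0.07 at 60 min (39.5% of the control, adjusted p = 0.000895 by limma) and -1.56 ± 0.35 at 30 min (33.8%, adjusted p = 0.000550; SD, n = 3 each). The ranges of both times overlap, and every array is below -1.

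*EGD2* (YHR193C), the alpha subunit of NAC, had log2 ratios of -2.25, -1.87 and -0.86 at 60 min. At 30 min they were -1.67, -1.62 and -0.98. Experiment 3 is the highest at both times and the only one above -1. The mean was -1.66 ± 0.72 at 60 min (31.6% of the control, adjusted p = 0.00136 by limma) and -1.43 ± 0.38 at 30 min (37.2%, adjusted p = 0.00425; SD, n = 3 each). Without experiment 2 of 30 min the mean at 30 min was -1.33 and the adjusted p 0.0506.

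*BTT1* (YDR252W), the minor beta subunit of NAC, had log2 ratios of 0.10, 0.35 and -0.56 at 60 min. At 30 min they were 0.46, 0.54 and 0.18. All 3 arrays of 30 min lie above 0, while those of 60 min fall on both sides of it. The mean was -0.04 ± 0.47 at 60 min, with a 95% interval of -0.54 to 0.47 (adjusted p = 0.916 by limma), and 0.39 ± 0.19 at 30 min, with an interval of -0.11 to 0.90 (adjusted p = 0.216; SD, n = 3 each). In percent of the control the intervals run from 68.8% to 138% at 60 min and from 92.8% to 186% at 30 min, so a fall of the size measured for *EGD1* lies outside both. The ratios come without signal over background, so whether the *BTT1* spot was bright enough to show such a fall was not tested. *BTT1* was the highest of the 6 genes in 5 of 6 arrays. In experiment 3 of 60 min *ZUO1* lay slightly above it, at -0.50 against -0.56.

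The ratios of both times were then set against each other, with separate controls behind each. By limma 0 of the 6 genes differed between 60 min and 30 min, as for 0.0% of all 6019 features, while 1 of the 6 genes, *SSZ1*, had an unadjusted p under 0.05, where 8.57% of all features had one. *SSZ1* was higher at 60 min than at 30 min by 0.69 on the log2 scale (95% interval 0.01 to 1.36, adjusted p = 0.569). For *ZUO1*, its partner in RAC, the difference was 0.72 (-0.23 to 1.67, adjusted p = 0.651).

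For the remaining genes the sign of the difference was mixed. It was 0.07 for *SSB2* (-0.72 to 0.86), 0.22 for *EGD1* (-0.43 to 0.88), -0.24 for *EGD2* (-1.10 to 0.63) and -0.43 for *BTT1* (-1.14 to 0.28), with adjusted p between 0.706 and 0.962. The intervals of *EGD2* and *BTT1* reach below -1 and those of *SSZ1* and *ZUO1* above 1, so for these genes a difference of 2-fold between the times lies within the error of 3 arrays at each time.

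**Figure D2:**
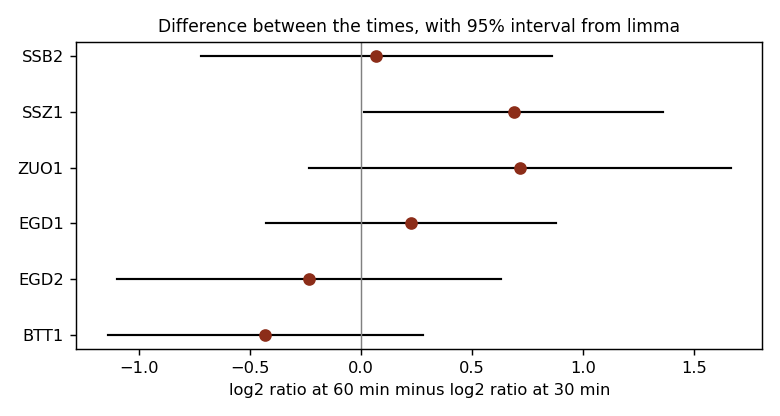
Difference of the mean log2 ratio at 60 min minus that at 30 min for each gene (horizontal axis), with 95% intervals from limma. The interval of *SSZ1*, 0.01 to 1.36, is the only one of the 6 that does not include 0.

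Both partners of RAC, the main subunits of NAC, its alternative beta subunits, and an Ssb with an Ssa Hsp70 were compared within an array, as 4 differences of log2 ratios, with an exact sign-flip permutation test over the 6 arrays. This test cannot give a two-sided p below 0.0313, and with adjustment over the 4 pairs 0 of them passed 0.05. *ZUO1* minus *SSZ1* was 0.63 ± 0.41 (SD, n = 6) and above 0 in 5 of 6 arrays (exact p = 0.0625, adjusted p = 0.0833). *EGD1* minus *EGD2* was 0.09 ± 0.56 (SD, n = 6), above 0 in 2 arrays and below 0 in 4 (exact p = 0.750, adjusted p = 0.750). In single arrays this difference between the subunits of NAC ran from -0.56 to 0.96.

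Both other pairs kept 1 sign in all arrays. *BTT1* minus *EGD1*, the alternative beta subunits of NAC, was 1.63 ± 0.55 (SD, n = 6) and above 0 in 6 of 6 arrays, from 0.86 to 2.32 (exact p = 0.0313, adjusted p = 0.0625). *SSB2* minus *SSA2*, a constitutive Hsp70 of the Ssa family, was -1.90 ± 0.59 (SD, n = 6) and below 0 in 6 of 6 arrays (exact p = 0.0313, adjusted p = 0.0625). The mean of this difference was -1.40 at 60 min and -2.41 at 30 min. The *SSA2* feature consists of probes with identical values, and no probe is named *SSA1*. *SSA1* is also constitutive and nearly identical to *SSA2*, so the *SSA2* feature may also bind *SSA1* transcript, and this was not tested.

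The genes that act beside Ssb, RAC and NAC were described from lists chosen by function. Beside their counts stand the shares of all features that fell, 18.2% at 60 min and 15.9% at 30 min. Of 12 measured genes of ribosomal proteins around the tunnel exit, where these chaperones dock, 11 fell at 60 min and 11 at 30 min, with medians of -1.89 and -1.56 at 60 and 30 min. On the log2 scale *RPL17A* averaged -2.85 at 60 min and -2.06 at 30 min, *RPL19A* -2.06 and -2.31, and *RPL26B* -2.33 and -2.06, each with an adjusted p of at most 0.00119 by limma. *RPL39* was the gene that did not pass at either time (-1.07, adjusted p = 0.0560, and -0.52, adjusted p = 0.335). Its mean at 60 min rests on experiment 1, with log2 ratios of -2.48, -0.71 and -0.0049 in experiments 1, 2 and 3. Of all 123 cytosolic ribosomal protein genes 116 fell at 60 min and 114 at 30 min, with medians of -2.55 and -2.11. Paralogous ribosomal protein genes may share signal on cDNA probes, so these are not 123 separate measurements.

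Of 10 measured genes for enzymes that process the amino terminus of the nascent chain 2 fell at 60 min and 2 at 30 min, with medians of -0.49 and -0.51. This is 20.0% at each time, near the 18.2% of all features that fell at 60 min and the 15.9% at 30 min. *NAT1*, the ribosome-binding subunit of the NatA acetyltransferase, fell at both times, to -1.20 on the log2 scale at 60 min (adjusted p = 0.00356 by limma) and to -1.39 at 30 min (adjusted p = 0.00206). Its catalytic partner *ARD1* had -1.39 at 60 min (adjusted p = 0.00162) and -0.27 at 30 min (adjusted p = 0.417). The methionine aminopeptidase gene *MAP1* had -0.68 at 60 min (adjusted p = 0.0590) and -0.997 at 30 min (adjusted p = 0.0150). With any 1 of the 30 min arrays left out, 1 gene of this list fell at 30 min, whereas 7 fell with each time fitted alone or with array weights and 4 after print-block centring. Without experiment 1 or experiment 3 of 60 min 4 genes fell at 60 min.

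The signal recognition particle and its receptor, which take signal-bearing chains to the endoplasmic reticulum, had 8 measured genes, of which 2 fell at 60 min and 2 at 30 min (medians -0.32 and -0.48). That is 25.0% at each time, where 18.2% of all features fell at 60 min and 15.9% at 30 min. *SRP68* and *SRP72* were the genes that fell at 60 min, and *SEC65* and the gene of the receptor's alpha subunit those that fell at 30 min. With any 1 of the 30 min arrays left out, 0 genes of this list passed at 30 min, and without experiment 2 of 60 min 1 passed at 60 min. At 30 min 4 passed with scaled arrays or with each time fitted alone, and 5 with array weights. Chaperones that receive chains further downstream differed from each other. In the chaperonin TRiC/CCT 5 of 8 subunits fell at 60 min and 5 at 30 min, with medians of -0.71 and -0.75 and with *CCT7* the lowest (-1.02 and -0.93). These counts changed with the arrays and settings used. At 60 min 1 subunit passed without experiment 2 of 60 min, 2 without experiment 3 of 60 min, and 3 if experiment 2 or 3 of 30 min was dropped. At 30 min 0 to 1 passed with any 1 of the 30 min arrays left out. Over all features the count that fell at 30 min dropped as well, from 960 to 441, 417 and 658 without experiments 1, 2 and 3. The count at 60 min dropped from 1096 to 810 without experiment 2 and to 934 without experiment 3 of 60 min. With each time fitted alone 2 TRiC/CCT subunits fell at 60 min, and with array weights 1, where 755 and 820 of all features fell. The highest TRiC/CCT count under any setting was 6 at 60 min and 7 at 30 min. Of 5 measured prefoldin genes 0 passed in limma at either time (medians -0.03 at 60 min and 0.07 at 30 min), and likewise 0 of 4 genes of ribosome quality control, which clears stalled chains (medians 0.01 and -0.20). In the quality control list 1 gene fell at 30 min with scaled arrays or with each time fitted alone, and 2 with array weights or after print-block centring. In prefoldin 1 gene fell at 60 min without experiment 3 of 60 min, and 1 rose after print-block centring.

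**Figure D3:**
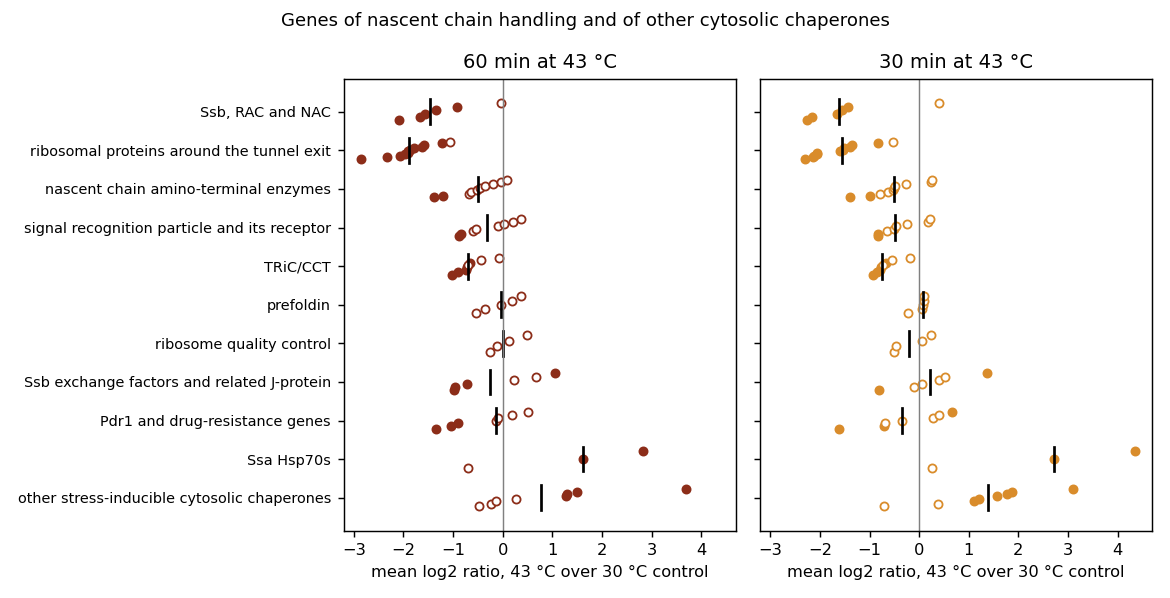
Mean log2 ratio (43°C over the 30°C control, horizontal axes) of each gene in the lists at 60 min (left) and 30 min (right), with filled points for adjusted p under 0.05 in limma and a black line at each list's median. The medians of Ssb, RAC and NAC (-1.46 at 60 min and -1.61 at 30 min) stand near those of the ribosomal proteins around the tunnel exit (-1.89 and -1.56). They lie on the other side of 0 from the medians of the 3 measured Ssa Hsp70s (1.61 and 2.71). Among these 3, *SSA2* lay at -0.70 at 60 min and 0.25 at 30 min.

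The nucleotide exchange factors of Ssb and related J-proteins went in both directions. Of 6 genes 3 fell and 1 rose at 60 min, and 1 fell and 1 rose at 30 min. Among all features 18.2% fell and 15.6% rose at 60 min, and 15.9% fell and 10.7% rose at 30 min. *FES1*, an exchange factor of cytosolic Hsp70s, fell to -0.97 at 60 min (adjusted p = 0.0174 by limma) and to -0.80 at 30 min (adjusted p = 0.0454). *JJJ1*, a J-protein of ribosome biogenesis, rose at 60 min (1.05, adjusted p = 0.00580) and *SSE2*, an Hsp110, at 30 min (1.36, adjusted p = 0.0235). The *FES1* and *SSE2* calls at 30 min changed when arrays were left out. Without experiment 2 or experiment 3 of 30 min 0 genes of this list fell and 0 rose at that time, and without experiment 1 of 30 min 0 fell. Over all features the count that rose at 30 min dropped as well, from 647 to 158, 132 and 327 without experiments 1, 2 and 3. At 60 min 1 gene fell without experiment 2 or experiment 3 of 60 min.

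The heat-inducible Hsp70s of the Ssa family stood at the other end of the distribution. *SSA4* averaged 2.83 ± 0.75 at 60 min and 4.34 ± 0.87 at 30 min on the log2 scale, and *SSA3* 1.61 ± 1.10 and 2.71 ± 0.69 (SD, n = 3 each, adjusted p at most 0.00836 by limma). *SSA2* did not pass (-0.70, adjusted p = 0.0603 at 60 min, and 0.25, adjusted p = 0.489 at 30 min), but fell at 60 min when experiment 1 of 60 min was left out. After print-block centring *SSA3* no longer passed at 60 min. Of 8 other stress-inducible cytosolic chaperones 4 rose at 60 min and 6 at 30 min, among them *HSP26*, *HSP82* and *HSP104*, and without experiment 2 of 30 min 3 rose at 30 min. Of all features 15.6% rose at 60 min and 10.7% at 30 min. *HSP42* had -0.13 at 60 min and -0.72 at 30 min, and *YDJ1* -0.48 and 0.39, and neither passed. *AHA1* had -0.23 at 60 min, where it did not pass, and 1.10 at 30 min. In the lower direction 1 of the 8 genes met the over 2-fold rule at 30 min. Without experiment 1 of 60 min 3 of these 8 genes fell at 60 min.

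Ssz1p and Zuo1p are also known to activate the transcription factor Pdr1p, which drives genes of drug resistance. Of 7 measured genes of this list 3 fell and 0 rose at 60 min, and 2 fell and 1 rose at 30 min (medians -0.13 and -0.34). Of all features 18.2% fell and 15.6% rose at 60 min, and 15.9% fell and 10.7% rose at 30 min. *SNQ2*, a drug pump, fell to -1.34 at 60 min (adjusted p = 0.00354 by limma) and to -1.61 at 30 min (adjusted p = 0.00166). With any 1 of the 30 min arrays left out, 1 gene of this list fell and 0 rose at 30 min. *PDR1* itself had 0.18 at 60 min (adjusted p = 0.613) and 0.27 at 30 min (adjusted p = 0.441).

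The 6 log2 ratios of the group's median profile were also compared with those of 5347 other named genes, by the root-mean-square difference over the 6 arrays. The closest was the ribosomal protein gene *RPL34A* (0.10). Its means of -1.48 at 60 min and -1.54 at 30 min lie above the medians of all cytosolic ribosomal protein genes (-2.55 and -2.11). It was followed by *GLN4* (0.16), *GRS1* (0.18), *CDC42* (0.18) and *PUB1* (0.19), none of them a cytosolic ribosomal protein gene. All genes share the same arrays, and 2 to 4 of the 5 closest genes remained among the 5 closest when 1 array was left out. After print-block centring these 5 did not remain the closest. For single genes the closest were *YHB1* to *SSB2* (0.28), *TIF3* to *SSZ1* (0.19), *TIF34* to *ZUO1* (0.28), *FUN26* to *EGD1* (0.17), *VMA5* to *EGD2* (0.16) and *HAP5* to *BTT1* (0.11). *TIF3* and *TIF34*, the closest genes to both RAC subunits, encode translation initiation factors. Whether this exceeds the share of such genes among the 5347 candidates was not tested. No gene closest to a single member is a cytosolic ribosomal protein gene, but such genes are only 123 of the 6019 features.

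Of the 12 genes that lie next to the 6 measured genes in chromosomal order, all with a value, 1 fell and 1 rose at 60 min, while 3 fell and 0 rose at 30 min by limma. The shares over all features were 18.2% lower and 15.6% higher at 60 min, and 15.9% lower and 10.7% higher at 30 min. *PAN5* and *RRP3*, on either side of *SSZ1*, fell at 30 min (-0.72, adjusted p = 0.0417, and -0.67, adjusted p = 0.0456), and YNL208W, beside *SSB2*, rose at 60 min (0.97, adjusted p = 0.00893). *PMA2*, beside *EGD1* and a close copy of the proton pump gene *PMA1*, fell at both times (-0.73, adjusted p = 0.0342 at 60 min, and -1.27, adjusted p = 0.00331 at 30 min). The zinc-finger genes *MET31*, beside *EGD1*, and *MET32*, beside *BTT1*, are paralogs like the NAC genes next to them. *MET31* had -0.30 at 60 min and -0.23 at 30 min, and *MET32* 0.31 and 0.45, with adjusted p between 0.114 and 0.474.

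The leading characters of the probe identifiers divide the features into 192 groups, which were read here as print blocks. Neither the labels nor the paper state this reading. *SSZ1* and *EGD2* lie in the same block. The block medians of the 6 genes ranged over the arrays from -0.48 to 0.76. After centring within blocks 5 genes fell at each time, with *ZUO1* at -1.40 at 60 min (adjusted p = 0.0177 by limma), where it was -0.93 without centring. *BTT1* then had 0.35 at 60 min (adjusted p = 0.217) and 0.60 at 30 min (adjusted p = 0.0509).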

How the data were processed

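The authors scanned each array at 2 laser powers (ScanArray 4000), quantified spots with GenePix 4.0, and deposited log ratios (read here as log2) of Cy5 over Cy3 normalized with negative control spots. Both scans of an array held identical values and were counted once. Probes were named through the platform annotation. Identical probes (203 in 78 groups) were counted once, and distinct probes of 18 genes were averaged.

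Mean ratios were tested against 0, and 60 min against 30 min, with limma 3.58.1 in R 4.3.3 (4 residual and 6.76 prior degrees of freedom), tested on simulated data, with Benjamini-Hochberg adjustment over 6019 features at 0.05. Members and lists were chosen with earlier results of these data known. Beside the members, up to 3 genes of each list with the largest change among those that passed, and the closest profiles, were to be named. Other genes were named after their values were seen. No *SSB1* pair could be made, so *SSB2* alone was set against *SSA2*. The alternatives were other centring, scaling, filters and scans, each time alone, array weights, robust moderation, a replicate block, print-block centring, natural logarithms and each array left out. Leaving out experiment 3 of both times was added after seeing the data.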

Additional observations from a re-analysis of the deposited data

How the results depend on the processing

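*SSB2*, *SSZ1*, *EGD1* at both times, *EGD2* at 60 min and *ZUO1* at 30 min fell under each of 19 alternative settings. Leaving out 1 array gave 4 to 5 genes that fell at each time, and 3 to 4 (60 min) and 4 to 5 (30 min) over 2-fold down. The *ZUO1* call at 60 min was also lost with each time fitted alone (adjusted p = 0.0684), with array weights (0.0738), when experiment 1 or 2 of 30 min was left out (adjusted p = 0.0530 for the first and 0.0599 for the second) and without experiment 3 of both times (0.0715). With array weights 1 gene rose at 30 min, the *BTT1* call given above. Equal experiment numbers were not treated as pairs (correlations of deviations -0.042, 0.127 and 0.356 for experiments 1, 2 and 3), and with the number as a replicate block 5 genes fell at each time and 0 differed between the times.

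Among the members and pairs, signs turned for values that had not passed. *EGD1* minus *EGD2* ranged from -0.081 to 0.22 with 1 array left out, and was -0.081 without experiment 1 and -0.00086 without experiment 2 of 60 min. *BTT1* at 60 min was 0.35 after print-block centring, -0.23 to 0.23 with 1 array left out, and 0.23 without experiment 3 of both times. The difference of 60 against 30 min turned for *EGD2* (0.057 with scaled arrays, 0.11 with array weights, and -0.63 to 0.058 with 1 array left out), *EGD1* (-0.037 after print-block centring) and *SSB2* (-0.27 to 0.26 with 1 array left out, with -0.095 without experiment 1 of 60 min). Over all features the counts that fell were 742 to 1176 at 60 min (1096 as reported) and 417 to 1738 at 30 min (960), and those that rose 515 to 1046 (941) and 132 to 1612 (647), with the lowest at 30 min without experiment 2 of 30 min and the highest there with array weights. After print-block centring 0 of the 5 closest profiles remained the closest. The cause was not tested. The deposited ratios carry no signal over background, so how far spot brightness limits precision is not known. The number of arrays limits it, and the arrays also differed in how well they matched. Over all features the correlation of arrays of the same time ran from 0.598 (experiments 1 and 2 of 60 min) to 0.853 (experiments 1 and 2 of 30 min).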
